A study of Mus musculus with 4 samples.

Results

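The cytosolic ribosomal protein genes were followed in lumbar spinal cord, in WT and G93A mice that received vehicle or spermidine (SD). Members were chosen by gene name alone: every name in the table made of Rpl or Rps and a number, with an optional closing letter or paralog ending, and the names Rpsa, Rplp0, Rplp1 and Rplp2. Pseudogene names and the Rps6k kinases were left out. This gave 82 genes of the 18674 gene names in the table, with 32 encoding proteins of the small (40S) subunit and 50 encoding proteins of the large (60S) subunit. The paralogs Rpl3l, Rpl7l1, Rpl22l1, Rpl39l and Rps27l are among them. The subunit genes Fau, Gnb2l1 (Rack1) and Rpl36al do not carry such a name and are given apart.

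There were 4 libraries, 1 per condition: WT mice with vehicle or with SD, and G93A mice with vehicle or with SD. Where 4 values of a gene follow each other, they stand in that order. G93A mice carry a transgene for the mutant human SOD1 enzyme and are a model of amyotrophic lateral sclerosis; they came from males of a high-expresser strain bred with B6/SJLF1 females. All mice were 100 days old and had received SD, a natural polyamine, or vehicle for 30 days. The general methods give SD as 5 mg/kg by intraperitoneal injection, and the dose and the number of injections per week are not stated for these mice in particular. The methods name both PBS and saline as the vehicle, and how many animals stand behind each library is not given in the sources used here. Since each condition had a single library, differences were not tested, no standard deviation can be given within a condition, and every comparison below is a description of these libraries. A fit that adds genotype and SD without an interaction would leave 1 residual degree of freedom and was not run.

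A ribosome is built from a 40S subunit, which binds the mRNA and reads its codons, and a 60S subunit, which joins the amino acids and releases the growing chain through an exit tunnel. Most of the proteins are present in equal number, and cells usually make the mRNAs of these genes in concert. Many of these mRNAs begin with a C followed by an unbroken run of C and T, the terminal oligopyrimidine (TOP) tract, through which growth signals of the mTOR pathway set their translation. Ribosomal protein genes have also left very many processed pseudogenes in mammalian genomes, which are near copies of the mRNA, and reads of both can be hard to assign.

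A run of C and T, as in a TOP tract, lies near the annotated start in part of the members' promoters. The RefSeq promoter table (GRCm38.p6) held 73 promoters for 61 of the 82 members. A run of at least 8 C or T that covered the annotated start, or began within 5 bases of it, was present in 28.8% of these promoters and in 6.31% of all 32851 promoters in the table. The share was 28.6% among promoters of 40S genes and 28.9% among those of 60S genes. With runs that end within 5 bases of the start counted too, a rule added after seeing the data, the shares were 32.9% and 9.72%. Examples are given below as 15 bases before and 15 bases after the start, 5′ to 3′ on the gene's strand, with the longest run of C and T that comes within 5 bases of the start in capitals (the first where runs tie). Rpl27a, Rps18 and Rplp2 have a long run by the narrower rule and Rpl4 and Rps27l by the wider rule alone. Rps3, Rplp0 and Rpl41, which were also abundant, have a short run near the annotated start. Neither rule required a C at the start, and how exactly the annotated starts mark the true ones was not tested. A short run therefore does not show that a TOP tract is absent.
Rpl27a, chr7:109519180-109519209, plus strand: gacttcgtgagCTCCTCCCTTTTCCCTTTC
Rpl4, chr9:64173372-64173401, plus strand: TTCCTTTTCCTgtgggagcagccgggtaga
Rps18, chr17:33955651-33955680, minus strand: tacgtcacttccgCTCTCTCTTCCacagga
Rplp2, chr7:141447636-141447665, plus strand: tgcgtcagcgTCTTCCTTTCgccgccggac
Rps27l, chr9:66946071-66946100, plus strand: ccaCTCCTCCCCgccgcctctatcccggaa
Rps3, chr7:99483695-99483724, minus strand: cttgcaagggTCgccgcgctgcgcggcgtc
Rplp0, chr5:115559452-115559481, plus strand: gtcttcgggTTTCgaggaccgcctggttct
Rpl41, chr10:128549154-128549183, minus strand: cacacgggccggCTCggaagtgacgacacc

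A further 3 sequences were searched in the window from 250 bases before to 50 bases after the start, on both strands, and 2 of them were more frequent among the members. ACCGGAAG, a sequence of the kind ETS factors bind, was found in 13.7% of the members' promoters and in 2.30% of all promoters. GCCATNTT, the core of YY1 sites, was found in 23.3% and 6.05%. TATAA, the core of the TATA box, was about as frequent in both sets, at 24.7% and 24.9%. A match of letters is a description of the window and not a measurement of binding.

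Before the conditions are compared, the tissue and the depth need a word. Values are RPKM (read counts divided by transcript length and by library size), a unit inferred from the values because the table names none, and depth was estimated at between 36800000 and 38600000 read pairs per library. The 5 Hox genes listed for the cord were Hoxa10, Hoxc10, Hoxd10, Hoxc8 and Hoxc9. They were present in every library, with a summed level from 46.6 to 64.9 RPKM, and Hoxc8 was the highest of them in each. The 3 forebrain genes summed to between 1.21 and 1.64 RPKM, with Emx1 listed at 0 in at least 1 library.

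Levels differed widely between members although RPKM is scaled to transcript length. Averaged over libraries, the level was 100 RPKM or more in 5 members, from 20 to 100 in 21, from 5 to 20 in 20, from 1 to 5 in 30 and below 1 in 6. Rpl41, which encodes the smallest ribosomal protein, had the highest mean, with 144 RPKM with vehicle and 144 with SD in WT, and 223 with vehicle and 234 with SD in G93A. Rpl8, whose protein lies beside the peptidyl transferase centre, measured 161, 164, 198 and 194 RPKM in the same order. Rpl4, which lines the exit tunnel, measured 132, 150, 173 and 182 RPKM. In each of these 60S genes both G93A libraries lay above both WT libraries.

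Among the most abundant 40S members, Rps3, which lies where the mRNA enters the ribosome, measured 82.8, 92.3, 116 and 127 RPKM and had the same order of genotypes. The lowest members were the tissue-restricted paralogs. Rpl3l, a copy of Rpl3 known from striated muscle, measured 0.179, 0.137, 0.145 and 0.114 RPKM, whereas Rpl3 itself measured 7.52, 8.55, 9.55 and 10.6. Rpl39l, a copy of Rpl39 known from testis, was listed at 0 in WT + SD and measured 0.118, 0.290 and 0.416 RPKM in WT vehicle, G93A vehicle and G93A + SD. The values of Rpl39l rested on an estimated mean of 6.33 read pairs and those of Rpl3l on 6.53.

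**Figure D1:**
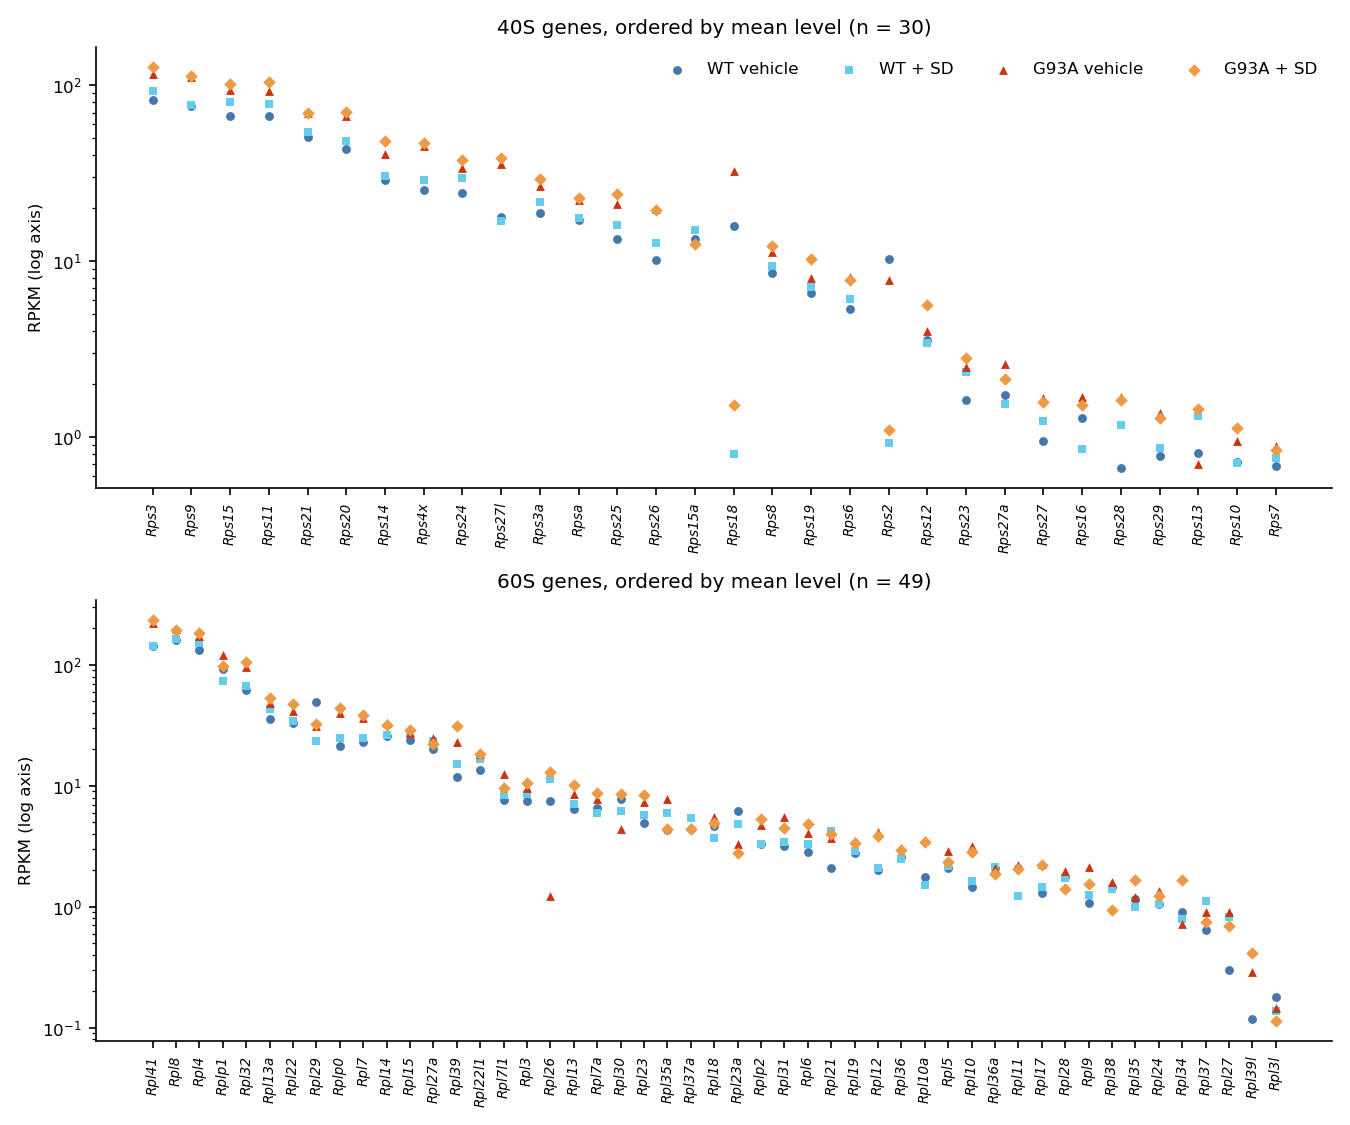
Level of each ribosomal protein gene in RPKM on a log axis, 1 point per library, for 30 genes of the 40S subunit and 49 of the 60S subunit, ordered by mean; 3 members are not drawn, nor is the point listed at 0 (Rpl39l in WT + SD). In most genes the G93A points lie above the WT points, while Rps18 and Rps2 have their SD points far below their vehicle points and Rpl26 has its G93A vehicle point far below the others.

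How much of a gene's sequence is its own varied just as widely, and it moved with level. Each member's transcript was cut into windows of 53 bases, the read length, and each window was looked up on both strands in the GENCODE M21 transcripts of all other genes. The median member had 51.7% of its transcript windows and 89.7% of its coding windows in at least 1 other gene, and 79 of 82 members shared windows with at least 1 pseudogene. Rpl3l and Rpl39l had no shared window. Across the 81 members with a coding sequence, mean RPKM and the percentage of coding windows shared had a Spearman coefficient of -0.50, as a description over genes of the same libraries. The abundant members Rps3, Rpl8 and Rpl4 shared 6.76, 8.31 and 18.5% of their coding windows. Rpl41, the most abundant, shared 100%.

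Low levels were common among the members whose coding sequence was wholly shared. How reads that fit several genes were counted is not given, and its part in these levels was not tested, so the order of levels between members is uncertain. Members with under 25% of their transcript windows shared had a median level of 35.3 RPKM (n = 14), and those with 75% or more had a median of 3.14 RPKM (n = 21). The difference between genotypes moved far less with sharing. The median log2 fold change of G93A vehicle against WT vehicle was 0.48 for the members with under 25% shared and 0.31 for those with 75% or more, and its Spearman coefficient with the share of coding windows was 0.031 over 81 members.

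**Figure D2:**
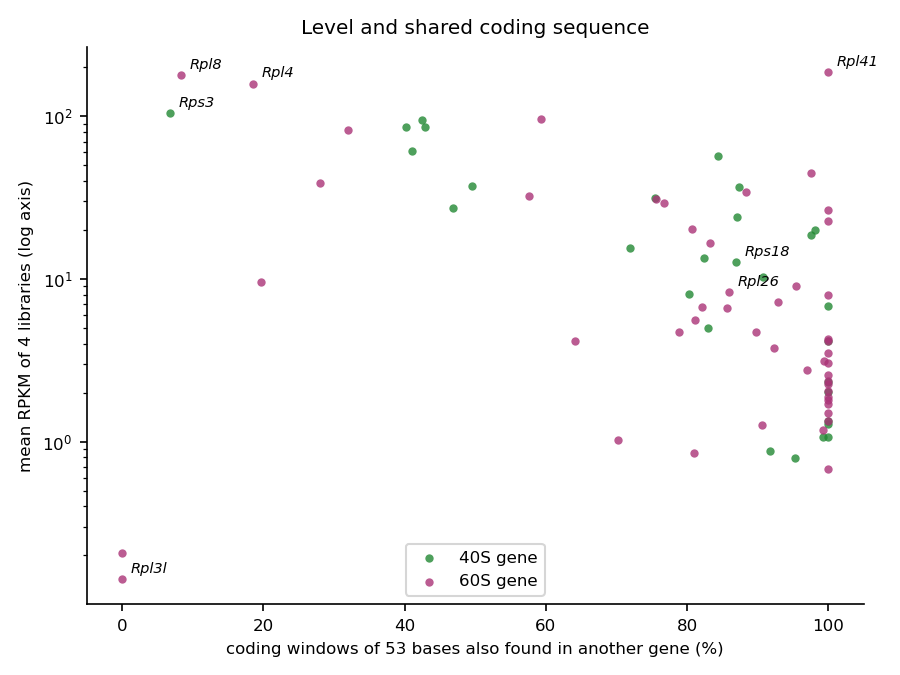
Mean RPKM of 4 libraries on a log axis against the percentage of a gene's coding windows of 53 bases that were also found in another gene, 1 point per gene for 78 of the 81 members with a coding sequence. Rps3, Rpl8 and Rpl4 sit at the upper left, and most members at 100% lie below 10 RPKM.

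The first comparison set G93A against WT under vehicle. Ribosomal protein mRNAs were generally higher in G93A vehicle, in both subunits. The median log2 fold change, computed on RPKM + 0.1 as all fold changes here unless a ratio is named, was 0.44 over the 82 members (1.36-fold), against 0.046 over all 18674 names. Between the quartiles the members ran from 0.29 to 0.70 and all names from -0.18 to 0.32. Of the members, 73 were higher by any amount in G93A vehicle, against 55.1% of all names. A difference of at least 1.5-fold was met by 28 members in the higher direction, beside 14.4% of all names, and by 4 in the lower direction, beside 5.31% of all names. Among the 46 members with a mean of at least 5 RPKM, 15 were at least 1.5-fold higher and 3 lower, beside 10% and 3.67% of all names at that level. The members were not more often past 2-fold than other names: 7 were in either direction (8.54%), beside 8.45% of all names.

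Summed over the members, the level was 1706 RPKM with vehicle and 1771 with SD in WT, and 2354 with vehicle and 2433 with SD in G93A. This was 0.662, 0.689, 0.851 and 0.874% of the sum over all names in the same libraries. The G93A libraries therefore stood above the WT libraries in the sum as well as in the median.

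The same comparison under SD rests on another pair of libraries. In G93A + SD against WT + SD the median log2 fold change of the members was 0.42 (1.33-fold), against 0.050 over all names, and 70 of 82 members were higher by any amount, against 55.0% of all names. At least 1.5-fold higher were 23 members, beside 17.1% of all names, and 1 member, Rpl23a, was at least 1.5-fold lower, beside 7.82%. Past 2-fold in either direction were 5 members (6.10%), beside 11.1% of all names. Gene by gene the sizes of the differences in both pairs were only loosely related, with a Spearman coefficient of 0.43 and a Pearson coefficient of 0.32 over the 82 members, given as a description.

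Both G93A libraries lay above both WT libraries in 62 of the 82 members, beside 39.7% of all names, and below both in 2, Rpl23a and Rps15a, beside 28.0% of all names. WT vehicle was the lowest library in 54 members (65.9%), beside 31.8% of all names. G93A + SD was the highest in 42 (51.2%), beside 36.7%, and G93A vehicle in 31 (37.8%), beside 20.001%.

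**Figure D3:**
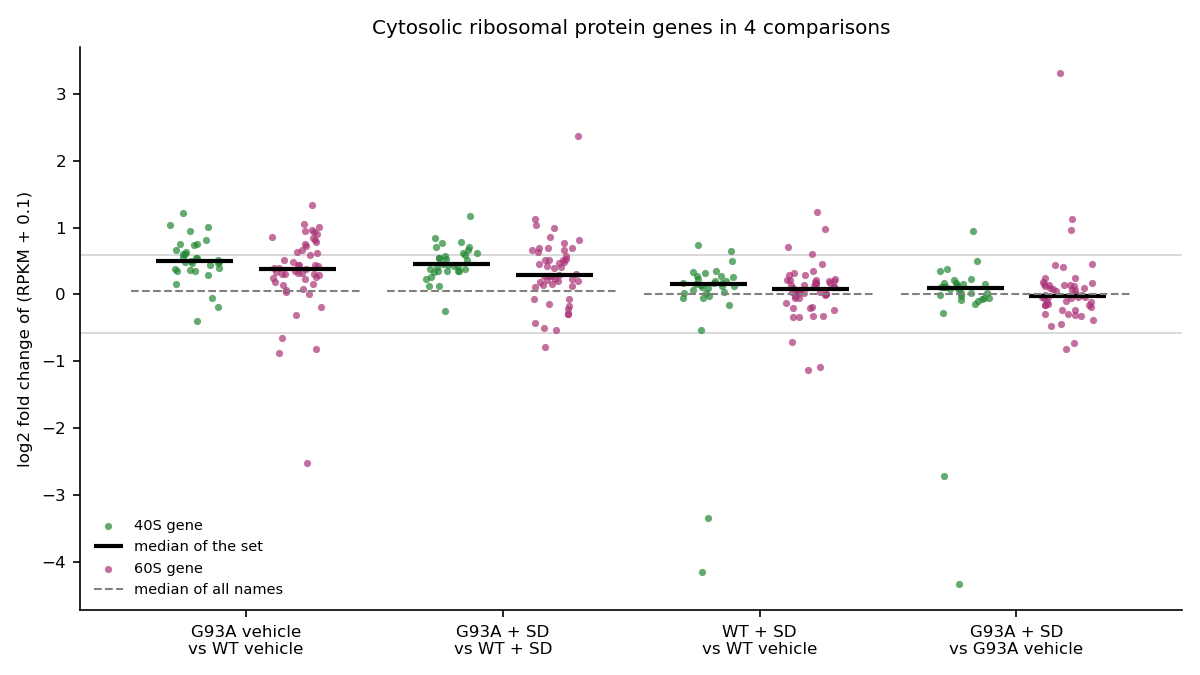
Log2 fold change of RPKM + 0.1 for each 40S and 60S gene in the 4 comparisons, with the median of each set (black bar), the median of all names (dashed line) and the 1.5-fold lines (grey). Medians of both subunits lie above the median of all names in both G93A comparisons and nearer to it in both SD comparisons, where single genes lie far away.

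A 1.5-fold difference in the higher direction in both pairs, on RPKM + 0.1, was met by 14 members, 5 of the 40S and 9 of the 60S subunit, beside 11.6% of all names. They make up 14 of the 28 members called under vehicle and 14 of the 23 called under SD. Rps4x, Rps18, Rps26 and Rps27l were among the 40S members. Rps27l, a paralog of Rps27 known as a target of the p53 tumour suppressor, measured 17.7 RPKM with vehicle and 17.02 with SD in WT, and 35.8 with vehicle and 38.6 with SD in G93A. The WT values were nearly equal and both G93A values were more than 2-fold above them as ratios of RPKM, at 2.02 and 2.27. Rps27 itself measured 0.952, 1.23, 1.67 and 1.59 RPKM.

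Rps26 is a 40S protein in which mutations cause Diamond-Blackfan anaemia in people. It measured 10.2, 12.8, 19.7 and 19.7 RPKM, so that the genotypes did not overlap, and its log2 fold change was 0.95 under vehicle and 0.62 under SD. X-linked Rps4x measured 25.6, 28.9, 45.1 and 47.2 RPKM.

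On the 60S side the members with such a difference in both pairs were Rpl7, Rpl10, Rpl10a, Rpl12, Rpl32, Rpl39, Rpl39l, Rpl41 and Rplp0, where Rpl39l had a ratio of 2.45 under vehicle, from an estimated 3.5 and 8.87 read pairs, and is counted under SD only through the added 0.1 RPKM, since WT + SD is listed at 0 and gives no ratio. Rpl39, a small protein of the exit tunnel, measured 11.9, 15.2, 23.1 and 31.4 RPKM, lowest in WT vehicle and highest in G93A + SD. Its log2 fold changes between genotypes were 0.95 and 1.04. The stalk, which recruits the elongation factors, is formed by Rplp0, Rplp1 and Rplp2. Rplp0 measured 21.4, 24.8, 40.1 and 43.7 RPKM, so that the genotypes were far apart. Rplp1 measured 93.2, 73.8, 121 and 97.5 RPKM, where G93A + SD lay only just above WT vehicle, and Rplp2 measured 3.29, 3.33, 4.76 and 5.31 RPKM.

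Further members named by rule are given here by their levels. Rpsa, the 40S protein also known as the laminin receptor, measured 17.2, 17.5, 22.4 and 22.8 RPKM. Rpl7 measured 23.2, 24.99, 36.7 and 38.6 RPKM, while its paralog Rpl7l1 measured 7.60, 8.41, 12.6 and 9.57. Rpl22 measured 33.2, 34.5, 41.6 and 47.4 RPKM, and its paralog Rpl22l1 13.5, 16.6, 18.4 and 18.4. Rpl15 measured 23.9, 26.6, 27.1 and 28.9 RPKM and was 0.18 and 0.12 higher in G93A on the log2 scale, among the smallest differences of the abundant members. Rpl23 measured 4.90, 5.79, 7.39 and 8.32 RPKM. Rpl27a, at 20.2, 23.4, 24.9 and 22.3 RPKM, did not separate the genotypes.

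**Figure D4:**
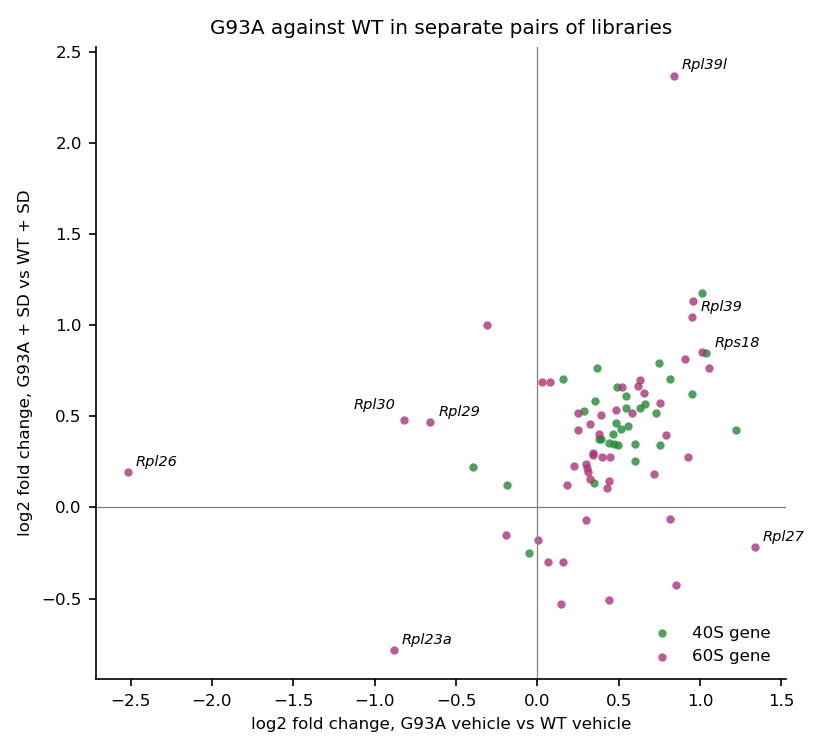
Log2 fold change of RPKM + 0.1 of G93A against WT under SD (vertical) and under vehicle (horizontal), 1 point per gene. Most genes lie in the upper right part, Rpl26 lies alone at -2.52 on the horizontal axis, and Rpl23a is the member at least 1.5-fold lower in both pairs.

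All members that went the other way under vehicle by at least 1.5-fold were of the 60S subunit. Rpl23a, which sits at the mouth of the exit tunnel, measured 6.14 RPKM with vehicle and 4.87 with SD in WT, and 3.29 with vehicle and 2.79 with SD in G93A, with log2 fold changes of -0.88 and -0.78. Its coding windows were shared in full with other genes, and it overlaps Tlcd1 on the opposite strand. Rpl26, Rpl29 and Rpl30 were lower in G93A vehicle but not in G93A + SD, and are taken up with SD below. Rps15a measured 13.3, 14.95, 12.8 and 12.6 RPKM, a small difference in which both G93A libraries were the lowest.

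The 40S and 60S genes were set side by side in the same comparisons. The median log2 fold change of G93A vehicle against WT vehicle was 0.50 for the 32 genes of the 40S subunit and 0.38 for the 50 of the 60S subunit, a difference of 0.12. In G93A + SD against WT + SD it was 0.45 and 0.29, a difference of 0.16. Both G93A libraries were above both WT libraries in 28 of 32 genes of the 40S subunit and in 34 of 50 of the 60S subunit, beside 39.7% of all names. Under vehicle 12 of the 40S genes (37.5%) and 16 of the 60S genes (32%) were at least 1.5-fold higher, beside 14.4% of all names, and 0 and 4 (8%) were lower, beside 5.31%. The ratio of the summed 40S level to the summed 60S level was 0.774 and 0.811 in the WT libraries and 0.852 and 0.863 in the G93A libraries, vehicle first. The ratio of the median 40S level to the median 60S level was 2.62 and 2.48 in WT and 3.92 and 3.30 in G93A. Both ratios were higher in G93A than in WT. Genes of a library are not replicates, so whether the subunits differ was not tested.

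Subunit genes outside the naming rule were mixed. Gnb2l1, which encodes the 40S scaffold protein Rack1, measured 81.7 RPKM with vehicle and 84.8 with SD in WT, and 135 with vehicle and 142 with SD in G93A, with log2 fold changes of 0.72 and 0.75 between genotypes. Fau, at 3.40, 4.53, 4.03 and 4.79 RPKM, encodes a ribosomal protein fused to a ubiquitin-like domain, and its genotypes overlapped. Rpl36al measured 28.6, 28.8, 32.3 and 29.3 RPKM.

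Genes that work beside the cytosolic ribosome were counted from lists, to be read beside the 55.1% of all names that were higher by any amount under vehicle and the 14.4% that were at least 1.5-fold higher. Of 76 mitochondrial ribosomal protein genes, 59 were higher by any amount in G93A vehicle, 1 was at least 1.5-fold higher and 0 were 1.5-fold lower, and their median log2 fold change was 0.080, against 0.44 for the cytosolic genes and 0.046 for all names. The exception was Mrps6, at 25.1, 25.4, 75.1 and 89.6 RPKM. Their summed level was 1112, 1129, 1250 and 1232 RPKM. Whether both sets of ribosomal genes differ from each other was not tested. Among 26 ribosome assembly genes the median was 0.19, with 24 higher by any amount and 0 past 1.5-fold. Among 18 genes of RNA polymerase I and its factors, which make ribosomal RNA, it was 0.20, with 18 higher by any amount and 0 past 1.5-fold.

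Other mRNAs with a TOP tract were compared from a list of 14. All 14 were higher by any amount in G93A than in WT, with vehicle as with SD, beside 55.1% and 55.0% of all names, with medians of 0.28 and 0.35. At least 1.5-fold higher were 4 of 14 in each pair, beside 14.4% and 17.1% of all names, and the other 10 did not reach that size. Pabpc1, the poly(A)-binding protein, measured 18.4 RPKM with vehicle and 20.4 with SD in WT, and 39.2 with vehicle and 44.7 with SD in G93A. Gas5, a noncoding host gene of small nucleolar RNAs, measured 5.002, 5.83, 8.91 and 9.82 RPKM. Vim, another of the 4, is also an astrocyte marker here. A list of 8 genes held 6 elongation factors, many of them TOP mRNAs, the Eef2 kinase Eef2k and the synthetase-complex protein Eef1e1. Of these 8, 7 were higher by any amount in G93A under vehicle and 6 under SD, with medians of 0.30 and 0.18, and 1 in each was at least 1.5-fold higher and 1 under SD at least 1.5-fold lower. Eef1a1, the form of most cell types, measured 291, 316, 523 and 622 RPKM, while Eef1a2, the form of neurons and muscle, was lower in both G93A libraries, at 294, 273, 204 and 164. Of 11 genes that control these mRNAs, 2 were at least 1.5-fold higher under vehicle, a share near the 14.4% of all names: Myc at 1.16, 1.06, 3.68 and 4.23 RPKM and the translation inhibitor Eif4ebp1 at 0.703, 0.421, 3.27 and 3.66. The median of the 11 was 0.10.

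Markers of several cell types also differed with genotype. Of all names, 14.4% under vehicle and 17.1% under SD were at least 1.5-fold higher in G93A, and 5.31% and 7.82% were lower. The summed level of 10 microglial markers was 182 RPKM with vehicle and 166 with SD in WT, and 1018 with vehicle and 1083 with SD in G93A, and 8 of 10 were at least 1.5-fold higher under vehicle and 9 of 10 under SD. The 8 astrocyte markers summed to 1485, 1426, 3857 and 4620 RPKM, with 5 and 6 of 8 higher. The 7 motor neuron markers summed to 406, 384, 220 and 143 RPKM, with 3 and 5 of 7 lower. Nefh made up most of this sum in each library, and Isl1 was higher by any amount in G93A in both pairs. The 7 markers of neurons in general summed to 1730, 1753, 1107 and 967 RPKM. The 7 markers of oligodendrocytes summed to 9043, 9316, 7376 and 6754 RPKM, with 0 of 7 past 1.5-fold under vehicle and 1 of 7 lower under SD. The 5 markers of red cells summed to 34.4, 69.3, 51.7 and 55.7 RPKM, and 4 of 5 were at least 1.5-fold higher in G93A under vehicle, while 5 of 5 were lower by any amount and 0 past 1.5-fold under SD. No listed marker of these types was at 0 in any library. Their part in the higher ribosomal protein levels of G93A was not tested, and in whole tissue a change in the number of cells of a type and a change in RNA per cell cannot be told apart.

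SD itself was compared within each genotype. The ribosomal protein genes as a set differed less with SD than between genotypes: the median log2 fold change was 0.11 in WT + SD against WT vehicle, where all names had 0.0044, and 0.026 in G93A + SD against G93A vehicle, where all names had 0.0068. In WT, 58 of 82 members were higher by any amount with SD, beside 51.1% of all names, and in G93A 44 were, beside 51.3%. Among the 46 members with a mean of at least 5 RPKM, 38 were higher with SD in WT (82.6%), beside 56.5% of names at that level, with a median of 0.15, and 34 were higher in G93A (73.9%), beside 49.9%, with a median of 0.098. In the WT pair 6 members were at least 1.5-fold higher, beside 2.25% of all names, and 5 lower, beside 2.80%. In the G93A pair 4 were higher, beside 2.97% of all names, and 4 lower, beside 2.55%. Among the 46 members with a mean of at least 5 RPKM, 1 was at least 1.5-fold higher and 3 lower in WT. Names at that level had 0.283% and 0.543%. In G93A 2 of the 46 were higher and 3 lower, beside 0.735% and 0.610% of names at that level. In either direction the 4 comparisons had 32, 24, 11 and 8 members past 1.5-fold, in the order of the text, beside 19.7%, 24.9%, 5.04% and 5.52% of all names. The 40S medians with SD were 0.15 and 0.094 and the 60S medians 0.074 and -0.020. All 5 red cell markers were at least 1.5-fold higher with SD in WT, and their part in the WT pair was not tested.

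A pair of 40S genes stood far from the rest in both genotypes. Rps18, whose protein contacts the tRNA from the 40S head, measured 15.8 RPKM with vehicle and 0.798 with SD in WT, and 32.6 with vehicle and 1.51 with SD in G93A. Rps2, which lies at the mRNA entry, measured 10.3, 0.922, 7.79 and 1.09 RPKM. In both genes each SD library lay below each vehicle library. The log2 fold changes with SD were -4.15 in WT and -4.34 in G93A for Rps18, and -3.34 and -2.72 for Rps2. Between genotypes Rps18 was higher in G93A at either level of treatment, by 1.04 and 0.85 on the log2 scale, whereas Rps2 was 0.40 lower under vehicle and 0.22 higher under SD. With both genes left out, the member median with SD was 0.12 in WT and 0.038 in G93A.

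Both genes lie on chromosome 17, Rps18 at chr17:33951999-33956001 on the minus strand and Rps2 at chr17:24718116-24721929 on the plus strand (GRCm38). Among the 8847 names of at least 5 RPKM on average, a search made after these values were seen found 8 (0.0904%), Rps18 and Rps2 among them, that were lower with SD by 2-fold or more in both genotypes. A position was found for 6 of them, and 5 of the 6 are on chromosome 17, which holds 356 of the 7989 positioned names of that level: Rps18, Rps2, Atp6v0c, Hmga1 and H2-T22, within chr17:24163866-36042747. The 150 names of that level within this stretch had median log2 fold changes with SD of -0.051 in WT and -0.086 in G93A. Within 100 kb of Rps2, 6 names of that level ran from -0.46 to 0.13 in WT and from -0.22 to 0.026 in G93A. Around Rps18, 10 names ran from -1.05 to 0.35 in WT and from -0.48 to 0.14 in G93A, the lowest in WT being H2-K1. The values of Rps18 and Rps2 were thus far below those of the genes beside them. Of the 8 members on chromosome 17, the median log2 fold change with SD was -0.13 in WT and -0.13 in G93A.

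The sequence of these genes is largely not their own. Of the 407 coding windows of Rps18, 53 were found in no other gene, as were 141 of 830 in Rps2 and 54 of 386 in Rpl26. The windows below, chosen after the values were seen, are coding stretches of 53 bases in which the member and the gene that shares most windows with it differ at a single base, shown in capitals.
Rps18, chr17:33952260-33952312, minus strand: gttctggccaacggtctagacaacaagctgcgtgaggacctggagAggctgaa
Gm11361, same stretch: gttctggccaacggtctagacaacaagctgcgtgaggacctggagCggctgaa
Rps2, chr17:24720283-24720335, plus strand: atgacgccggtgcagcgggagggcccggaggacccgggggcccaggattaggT
Rps2-ps10, same stretch: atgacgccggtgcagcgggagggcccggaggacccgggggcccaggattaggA
Rpl26, chr11:68903246-68903298, plus strand: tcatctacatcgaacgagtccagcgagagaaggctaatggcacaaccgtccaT
Gm15772, same stretch: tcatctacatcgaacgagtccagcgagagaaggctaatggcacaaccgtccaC
In Rps18 87.0% and in Rps2 83.0% of the coding windows were shared. The other names in the group varied in this: Hmga1 had 100% of its coding windows in other genes, Atp6v0c 86.5%, H2-T22 41.1% and Adamts4, on chromosome 1, 4.79%. Of transcript windows, Hmga1 had 85.4% in other genes, H2-T22 42.2%, Atp6v0c 31.8% and Adamts4 2.75%. Adamts4 was lower with SD by 1.73 in WT and 2.33 in G93A on the log2 scale. Whether shared sequence has a part in the low SD values was not tested.

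**Figure D5:**
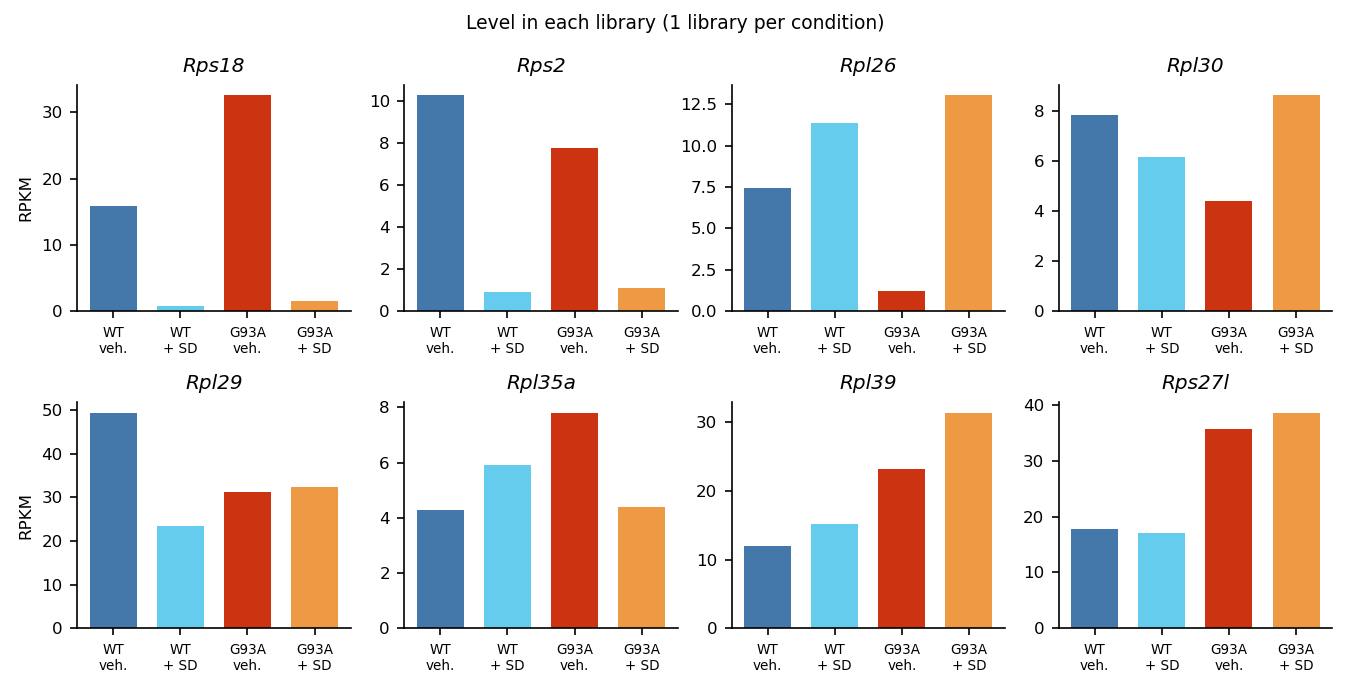
Level in RPKM of 8 ribosomal protein genes in each library, 1 bar per library, each axis from 0. Rps18 and Rps2 are low in both SD libraries, Rpl26 and Rpl30 are lowest in G93A vehicle, Rpl29 is highest in WT vehicle, Rpl35a is highest in G93A vehicle, and Rpl39 and Rps27l are higher in both G93A libraries.

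A different pattern, with G93A vehicle as the odd library, was found in Rpl26 and Rpl30. Rpl26, a 60S protein that also binds the mRNA of p53, measured 7.44 RPKM with vehicle and 11.4 with SD in WT, and 1.22 with vehicle and 13.0 with SD in G93A. Its log2 fold change was -2.52 between the vehicle libraries, 0.19 between the SD libraries, 0.61 with SD in WT and 3.32 with SD in G93A. The low vehicle value and the high difference with SD in G93A rest on the same G93A vehicle library. The near copy Gm15772 is listed on its own and ran in parallel, at 7.77, 11.9, 1.25 and 13.6 RPKM. Rpl26 had 86.0% of its coding windows in other genes.

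Rpl30, also of the 60S subunit, measured 7.82 RPKM with vehicle and 6.15 with SD in WT, and 4.38 with vehicle and 8.62 with SD in G93A. Its log2 fold change was -0.82 between the vehicle libraries and 0.96 with SD in G93A, again with G93A vehicle in both. Rpl34 had this order too, at 0.912, 0.789, 0.718 and 1.68 RPKM. Other members past 1.5-fold had an order of their own. Rpl29, which binds heparin, measured 49.4, 23.3, 31.3 and 32.3 RPKM, so that WT vehicle alone was high. Rpl35a measured 4.28, 5.93, 7.81 and 4.38 RPKM, highest in G93A vehicle and next highest in WT + SD. Rps13 measured 0.813, 1.33, 0.701 and 1.45 RPKM and was higher with SD in both genotypes.

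The remaining members past 1.5-fold with SD were at low levels. In WT these were Rpl21, Rpl27, Rpl37 and Rps28 in the higher direction and Rpl11 and Rpl39l in the lower, and in G93A Rpl38 in the lower. Rpl27, at 0.298, 0.829, 0.903 and 0.700 RPKM, Rps28 and Rpl39l are among the 5 members whose mean rested on fewer than 20 estimated read pairs. Across the 82 members the Pearson coefficient between both SD comparisons was 0.69, but -0.074 over 79 members without Rps18, Rps2 and Rpl26, so that the relation rests on those genes.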

How the data were processed

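The authors deposited 1 table for the whole series, with 23750 rows of RefSeq transcripts and 1 column per library, and its values were taken as RPKM, inferred from the values. According to the methods, RNA was extracted with the RNeasy Lipid Tissue Mini kit, selected for polyA and read over 53 bases on a GAIIx. STAR placed the reads on GRCm38, and HTSeq counted them over Ensembl genes. The submitters' processing notes name STAR, GRCm38 and mm10. The step that gave the values, how reads that fit several genes were treated, and whether strand was used are not given in the sources used here. Of the members, 18 overlap another protein-coding gene, 15 on the opposite strand. The ratio columns of the authors were not used.

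Rows of a name were averaged (9 members had several rows), and log2 fold changes used a pseudocount of 0.1 RPKM, with no filter on low values. A pseudocount shrinks the fold change of low genes. A name was called at 1.5-fold or more. With 1 library per group no test was made. Read pairs were estimated from steps in low values, and GENCODE M21 lengths may differ from those of the authors. Named genes were Rpl26 and Rpl30, Rpsa and the stalk, paralogs and their parents, the highest and lowest means, and the largest differences with a mean of at least 5 RPKM, 32 genes in all; Rpl23a, Rpl34, Rps4x, Rps13 and others outside this rule were named after their values were seen. Members and lists were chosen with earlier results of these data known. The coding windows, the genes near Rps18 and Rps2, the names of at least 5 RPKM as background and the wider rule for runs were added after seeing the data. So were the alternatives with at least 20 estimated read pairs and without Rps18 and Rps2. Python 3.11.15, numpy 2.4.6, pandas 2.3.3, scipy 1.17.1 and matplotlib 3.10.9 were used, and the calculations were tested on simulated data. H3K4me2 ChIP-seq, qPCR and protein data were not analysed here. Single values of 3 members and of some listed genes are not reported here, though the members stay in every count, sum and median.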

Additional observations from a re-analysis of the deposited data

How the results depend on the processing

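No paired analysis was run, since each condition has 1 library, and for the same reason no replicate could be left out. The median of the members kept its direction in each of 10 alternatives (other pseudocounts, a minimum of 1 RPKM, median-ratio scaling, the highest row of a name, added or removed members, and, chosen after seeing the data, at least 20 estimated read pairs and no Rps18 or Rps2). It ran from 0.38 to 0.48 on the log2 scale for G93A vehicle against WT vehicle, from 0.35 to 0.43 for G93A + SD against WT + SD, from 0.094 to 0.13 for SD in WT and from 0.013 to 0.049 for SD in G93A. The 40S median minus the 60S median stayed above 0 in each of these alternatives, from 0.11 to 0.17, 0.098 to 0.23, 0.021 to 0.096 and 0.016 to 0.13 in the same order of comparisons.

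The number of members past the fold threshold in either direction was 32, 24, 11 and 8 in that order. With a pseudocount of 1 RPKM it was 15 (18.3%) for G93A + SD against WT + SD, beside 14.6% of all names, and 4 (4.88%) for SD in WT, beside 0.712%, since low genes move less. At 2-fold in place of 1.5-fold it was 7, 5, 5 and 4, or 8.54, 6.10, 6.10 and 4.88% of the members, beside 8.45, 11.1, 1.46 and 1.53% of all names, so that the larger share of members called in the G93A comparisons is not seen at 2-fold. For G93A + SD against WT + SD it is also not seen with median-ratio scaling (25.6% beside 25.4%) or with no pseudocount (29.6% of 81 members beside 32.7%). These shares pool both directions. With median-ratio scaling 19 of 82 members were higher, beside 15.8% of all names, and 2 lower, beside 9.63%. With no pseudocount 23 of 81 were higher, beside 21.4%, and 1 lower, beside 11.3%. For SD in G93A, no pseudocount gave 9.76% of members in either direction, beside 11.8% of all names. Among the 38 members with under 50% of their windows shared, the number past 1.5-fold was 12, 12, 4 and 2, or 31.6, 31.6, 10.5 and 5.26%. The shares of all names were 19.7, 24.9, 5.04 and 5.52%, so that SD in G93A lay at the share of all names. All names include many at low levels. With a mean of at least 1 RPKM, 8 of 76 members (10.5%) were past 1.5-fold in each SD comparison. Names of that level had 1.89% in WT and 2.17% in G93A. Depth limits the 5 members under 20 estimated read pairs, and for wholly shared members the way reads were assigned is not given in the sources used here.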
